A study of Mus musculus with 6 samples.

Results

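Secreted and membrane-bound axon guidance cues and their receptors were examined in mouse tooth germs with and without Smad7. The genes were taken by symbol: class 3 to class 7 semaphorins, plexins, neuropilins, Eph receptors, ephrins, Slits and Robos, which gave 60 of the 23420 symbols in the count tables. Of these, 31 encode ligands (20 semaphorins, 8 ephrins and 3 Slits) and 29 encode receptors (9 plexins, 2 neuropilins, 14 Eph receptors and 4 Robos). RNA came from whole tooth germs of C57BL/6 embryos at E15.5, with 3 libraries of genotype Smad7-/- and 3 wild-type libraries, and the labels give no treatment. They describe neither the Smad7 allele nor whether each library is a different embryo or litter, and the spread behind every p-value may therefore be technical.

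Guidance cues steer growing axons and also position epithelial, mesenchymal and vascular cells. Class 3 semaphorins are secreted, and most act through a neuropilin that binds the ligand and a plexin that signals. Most other semaphorins are anchored in the membrane and bind plexins directly. Ephrins are cell-surface ligands of the Eph receptor tyrosine kinases, with signals passing into both touching cells, and Slits are secreted proteins that repel cells carrying Robo receptors. In the mouse tooth, Sema3a made by dental mesenchyme keeps sensory axons of the trigeminal ganglion out of the dental papilla until mineralisation begins. Smad7 is an inhibitor of signalling by TGF-beta and BMP receptors, and the comparison shows whether RNA of these cues and receptors differs without it.

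Depth ran from 37591888 to 56575476 counts per Smad7-/- library and from 47800685 to 52137318 counts per wild-type library. Smad7 itself stood at 2.13, 1.43 and 0.712 CPM (counts scaled to library depth and composition) in Smad7-/- libraries, against 21.4, 18.9 and 17.99 CPM in wild-type libraries, so each library matched its genotype. Among the cell type markers, those of dental epithelium summed to 8518 to 10188 CPM in Smad7-/- and 9972 to 10972 CPM in wild-type libraries, and all 9 were detected. The 13 neuronal markers summed to 286 to 356 CPM in Smad7-/- and 329 to 367 CPM in wild-type libraries, with 6 of them below the filter on low counts and none at 0 throughout. Of all the marker lists, macrophage markers had the highest median log2 change, 0.60, with 9 of 9 higher and sums of 199 to 217 CPM in Smad7-/- and 116 to 160.5 CPM in wild-type libraries. Red blood cell markers had the lowest, -1.47, with 3 of 3 tested lower. They summed to 16.9 to 28.8 CPM in Smad7-/- and 35.7 to 50.8 CPM in wild type. Of the 9 listed, 7 were found. Hbb-bt and Hbb-bs were not among the symbols, and Hba-a1 and Hba-a2 stood at 0 for a reason that was not tested. Skeletal muscle markers were lower for 8 of 9, with a median of -0.35. No marker in these lists was called, and their part in the guidance results was not tested. The libraries also separated on the first principal component in a way that crossed genotype. Smad7-/- libraries 1 and 2 with wild-type library 1 are called the first set here, and Smad7-/- library 3 with wild-type libraries 2 and 3 the second set. The labels name no batch, and each set holds both genotypes in unequal numbers. By Xist and a Y-linked gene the libraries were of mixed sex, with 1 female and 2 male libraries in each genotype. The female ones were Smad7-/- library 3 and wild-type library 1. Each is the only library of its genotype in its set. Differences between genotypes within a set therefore rest on 1 library on 1 side and cannot be told apart from sex.

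Tooth germs expressed nearly the whole guidance repertoire. Of the 60 genes, 54 averaged at least 1 CPM and 14 averaged 100 CPM or more, and the 3 that stayed below the filter were all EphA receptors. Levels of different genes were compared per kilobase of transcript (CPM per kb). On that scale the plexins held the most RNA, with a summed level of 192 to 218 CPM per kb in Smad7-/- libraries and 211 to 237 CPM per kb in wild-type libraries. Membrane-bound semaphorins and ephrins followed, at 149 to 162 and 144 to 162 CPM per kb in Smad7-/- libraries, against 150.2 to 161 and 147 to 154 CPM per kb in wild-type libraries. Neuropilins, receptors of most class 3 semaphorins, summed to 26.7 to 30.8 CPM per kb in Smad7-/- and 25.1 to 27.3 CPM per kb in wild-type libraries. The families differ in size, with 2 neuropilins beside 9 plexins, 13 membrane-bound semaphorins and 8 ephrins. Summed levels therefore do not rank single genes.

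**Figure D1:**
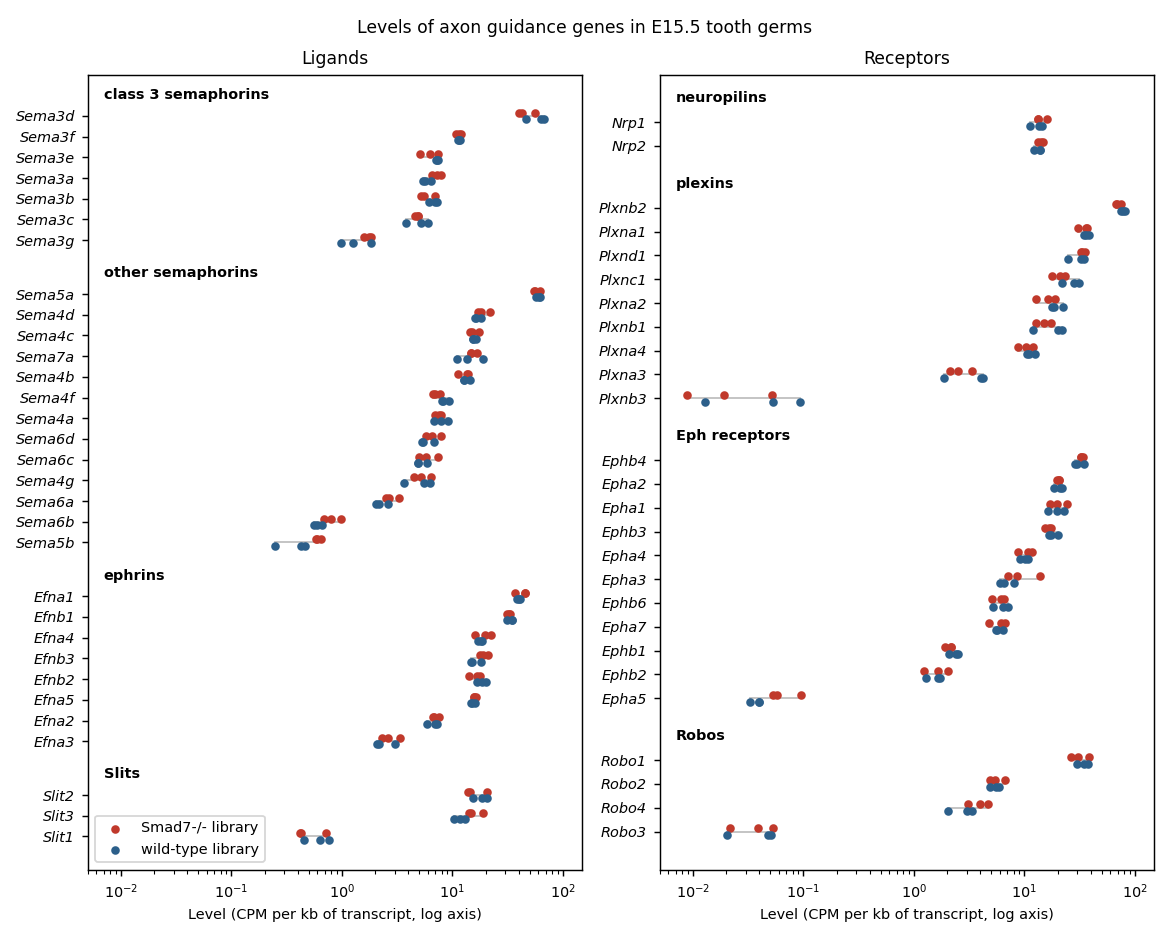
Level of each axon guidance gene in CPM per kb of transcript (log axis), with ligands on the left and receptors on the right. Each dot is 1 library (red Smad7-/-, blue wild type, 3 each) and each grey line spans the 6 libraries. The 57 genes above the filter are drawn. The highest gene of each family averages between 13.7 and 74.4 CPM per kb.

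One semaphorin of the secreted class dominated. Sema3d, a class 3 semaphorin, stood at 46.3 ± 8.23 CPM per kb in Smad7-/- and 59.0 ± 11.2 CPM per kb in wild-type tooth germs (mean ± SD, n = 3 each) and held 58.4% of the level of its family. The next member, Sema3f, stood at 11.5 ± 0.562 and 11.5 ± 0.240 CPM per kb in Smad7-/- and wild-type tooth germs, and the ranges of these neighbours did not meet. Sema3e, Sema3a, Sema3b and Sema3c followed at average levels of 4.90 to 6.75 CPM per kb, each overlapping the next, and Sema3g was the lowest at 1.54 CPM per kb. Among the other semaphorins, Sema5a, a transmembrane protein with thrombospondin repeats, stood at 57.8 ± 4.11 CPM per kb in Smad7-/- and 60.3 ± 2.39 CPM per kb in wild type. Sema4d, a ligand of plexin-B receptors, followed at 19.1 ± 2.66 and 16.8 ± 1.15 CPM per kb in Smad7-/- and wild type, overlapping Sema4c. Sema5b, the relative of Sema5a, was at the bottom of this group with 0.494 CPM per kb on average.

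Plexin RNA was led by Plxnb2, the receptor of several class 4 semaphorins, at 70.6 ± 4.13 CPM per kb in Smad7-/- and 78.2 ± 3.50 CPM per kb in wild type, the highest average of all 60 genes. Plxna1, a plexin that pairs with neuropilins, came next at 34.3 ± 3.54 and 36.5 ± 1.87 CPM per kb in Smad7-/- and wild type. Plxnd1, the receptor of Sema3e, averaged 32.0 CPM per kb and overlapped Plxna1. Plxnc1, Plxna2, Plxnb1 and Plxna4 ran from 23.8 to 10.9 CPM per kb, each overlapping its neighbour, while Plxnb3 was barely present at 0.0400 CPM per kb. The neuropilins did not separate: Nrp1 stood at 14.2 ± 1.65 CPM per kb in Smad7-/- and 13.1 ± 1.60 CPM per kb in wild type. Nrp2 stood at 13.99 ± 0.644 and 13.2 ± 0.952 CPM per kb in the same groups.

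Ephrins of both kinds were abundant. Efna1, an ephrin held by a lipid anchor, stood at 42.6 ± 5.21 CPM per kb in Smad7-/- and 40.1 ± 1.28 CPM per kb in wild type. Efnb1, a transmembrane ephrin encoded on the X chromosome, stood at 32.3 ± 0.981 and 33.6 ± 1.84 CPM per kb in Smad7-/- and wild type, below the range of Efna1. Their receptors were headed by Ephb4, the venous partner of ephrin-B2, at 32.8 ± 0.861 CPM per kb in Smad7-/- and 31.2 ± 3.24 CPM per kb in wild type. Epha2, a receptor of epithelial cells, was at 20.2 ± 0.535 and 20.5 ± 1.73 CPM per kb in these groups, overlapping Epha1. Epha5, a receptor of the nervous system, averaged 0.0532 CPM per kb. Over the 3 Smad7-/- libraries Epha6 had 1 count, Epha8 had 2 and Epha10 had 0. The last allows up to 0.0216 CPM for Epha10 (3 counts over the group, counting error only). Over the 3 wild-type libraries Epha8 and Epha10 had 2 counts each, and Epha6 had more.

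The Slits and Robos were each carried by few members. Slit2 stood at 16.3 ± 3.84 CPM per kb in Smad7-/- and 18.2 ± 2.63 CPM per kb in wild type, overlapping Slit3, whereas Slit1 averaged 0.570 CPM per kb. Robo1, the widely expressed Slit receptor, stood at 31.7 ± 6.03 CPM per kb in Smad7-/- and 33.8 ± 3.89 CPM per kb in wild type and held 78.5% of the Robo level. Robo2 was at 5.68 ± 0.954 and 5.43 ± 0.522 CPM per kb in Smad7-/- and wild type. Robo3, known from commissural neurons, averaged 0.0387 CPM per kb.

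No axon guidance gene changed past the threshold between genotypes. Of the 57 genes tested, 0 passed an adjusted p of 0.05 in edgeR's quasi-likelihood test over 15284 genes, where 4 genes (0.0262%) passed in all, 0.0131% higher and 0.0131% lower, and the smallest adjusted p was 0.696, for Slit3. In DESeq2 also 0 passed, with a smallest adjusted p of 0.215, beside 0.351% of all genes with an adjusted p. An unadjusted p under 0.05 in edgeR was seen for 7 of the 57 genes (12.3%), 5 higher and 2 lower in Smad7-/-, beside 5.14% of all genes tested (3.26% higher and 1.88% lower). Each change rests on 3 libraries per genotype. The count moved with the libraries, as did that over all genes, which was 786 with every library. It was 2 without wild-type library 2 (351 over all genes) and 4 without Smad7-/- library 1 (555). It was 10 without wild-type library 1 (1365) and 10 without Smad7-/- library 3 (1376). With sex as a covariate it was 5 (687 over all genes). With the 2 sets of libraries as a covariate it was 12 of 57, beside 991 of 15284 genes (6.48%). DESeq2 gave 10 of the 60 guidance genes an unadjusted p under 0.05, beside 914 of 19000 genes (4.81%). In edgeR with the replicate number as a block it was 11 of 57, beside 1210 of 15284 genes (7.92%).

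The genes were evenly split in direction, with 29 higher and 28 lower in Smad7-/- and a median log2 change of 0.00, against -0.00 over all tested genes. The standard errors of the changes ran from 0.08 to 0.76 with a median of 0.13. For 40 of the 57 genes (70.2%) the 95% interval of the change lay inside 1.5-fold in either direction, beside 64.4% of all tested genes. The groups did not overlap for 6 of the 57 (10.5%), 5 higher and 1 lower in Smad7-/-, beside 8.88% of all tested genes (4.97% higher and 3.91% lower). They were Slit3, Sema3a and Sema4f, and the scarce Sema5b, Sema6b and Epha5, all below 4 CPM.

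**Figure D2:**
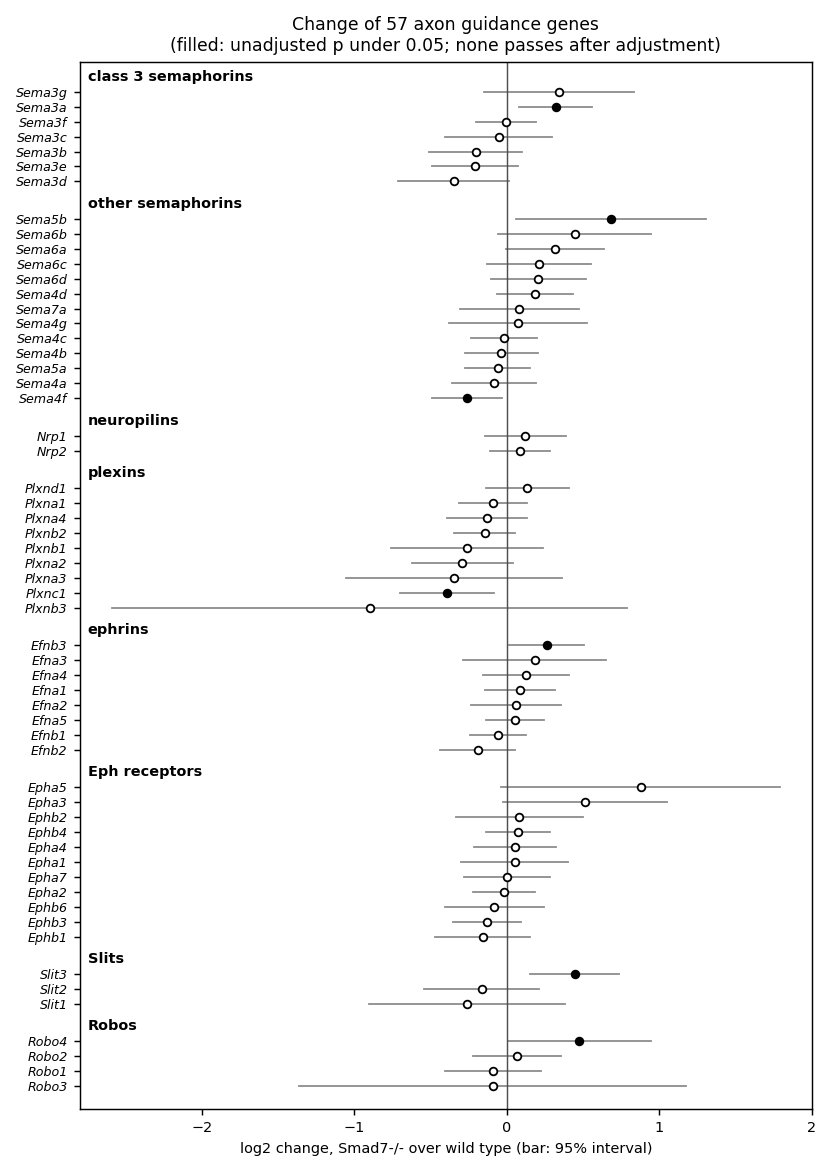
Log2 change (Smad7-/- over wild type) of the 57 tested genes by family, with points at the edgeR estimate. Bars span a 95% interval derived from the F statistic of its test. Filled points mark the 7 genes with an unadjusted p under 0.05; the intervals of the others include 0, and no gene passed after adjustment.

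Slit3, a secreted repellent that binds Robo receptors, had the smallest p among the 60 genes. It stood at 76.4, 73.2 and 98.8 CPM in Smad7-/- libraries, against 60.9, 54.5 and 67.4 CPM in wild-type libraries. All Smad7-/- libraries were above all wild-type libraries, with Smad7-/- library 3 the highest. The log2 change was 0.44 ± 0.13 (SE, n = 3 each; edgeR adjusted p = 0.696), a 1.36-fold difference, with a 95% interval of 0.15 to 0.73. Within the first set of libraries the log2 difference was 0.29, and within the second set it was 0.70. Its family member Slit2 stood at 144, 138 and 207 CPM in Smad7-/- and 186, 208 and 155 CPM in wild-type libraries (log2 -0.16 ± 0.17 SE), with groups that overlapped. Its difference was -0.40 within the first set and 0.21 within the second. Slit1 stood at -0.26 ± 0.29 on the log2 scale.

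Sema3a, the repellent that shapes dental innervation, stood at 45.6, 41.1 and 48.9 CPM in Smad7-/- libraries, against 40.1, 35.1 and 33.4 CPM in wild-type libraries. The groups did not overlap, but Smad7-/- library 2 and wild-type library 1 lay close together. The log2 change was 0.32 ± 0.11 (SE, n = 3 each; edgeR adjusted p = 0.814), and it was 0.11 within the first set and 0.51 within the second. Sema3d, the most abundant of its class, leaned lower, at 254, 271 and 351 CPM in Smad7-/- libraries and 293, 428 and 396 CPM in wild-type libraries. Its groups overlapped, and the log2 change was -0.35 ± 0.16 (SE, n = 3 each; edgeR adjusted p = 0.988). With the sets of libraries as a covariate the Sema3d change was -0.19. Sema3f was level, at 41.9, 40.2 and 38.0 CPM in Smad7-/- and 40.9, 40.1 and 39.2 CPM in wild-type libraries, with a 95% interval of -0.20 to 0.19 on the log2 scale. The remaining class 3 members Sema3b, Sema3c, Sema3e and Sema3g ran from -0.21 to 0.34.

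Markers of dental mesenchyme, the tissue known to make Sema3a, summed to 582 to 625 CPM in Smad7-/- libraries and 491 to 555 CPM in wild-type libraries, with 9 of 10 higher and a median log2 change of 0.40. Smooth muscle and pericyte markers likewise summed to 545 to 659 CPM in Smad7-/- and 412 to 515 CPM in wild type, with 8 of 8 higher, and none of these markers was called. Their part in the values of Slit3 and Sema3a was not tested, and in whole tooth germs a change in the number of cells of a type and a change in RNA per cell cannot be told apart.

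Among the membrane-bound semaphorins, Sema4f stood at 27.4, 28.2 and 31.7 CPM in Smad7-/- libraries, against 33.2, 37.7 and 33.9 CPM in wild-type libraries. All Smad7-/- libraries were below all wild-type libraries, although library 3 of Smad7-/- nearly met the lowest wild-type value. The log2 change was -0.26 ± 0.10 (SE, n = 3 each; edgeR adjusted p = 0.877). Sema5b was scarce, at 2.56, 2.60 and 2.79 CPM in Smad7-/- libraries and 2.03, 1.07 and 1.84 CPM in wild-type libraries, that is 96 to 161 counts in Smad7-/- and 53 to 104 counts in wild type. Its log2 change was 0.69 ± 0.28 (SE, n = 3 each; edgeR adjusted p = 0.9004), with wild-type library 2 the lowest. The abundant Sema5a was level at 609.9, 589 and 674 CPM in Smad7-/- and 622, 672 and 659 CPM in wild-type libraries (log2 -0.06 ± 0.10 SE). Sema4d stood at 100.2, 76.8 and 82.9 CPM in Smad7-/- and 82.2, 72.2 and 74.5 CPM in wild-type libraries, which overlapped (log2 0.18 ± 0.11 SE). Class 6 members, which are transmembrane ligands of plexin-A receptors, all lay on the higher side without passing: Sema6a at 0.32 ± 0.14, Sema6b at 0.44 ± 0.22, Sema6c at 0.21 ± 0.15 and Sema6d at 0.21 ± 0.14 (log2, SE). The others, Sema4a, Sema4b, Sema4c, Sema4g and Sema7a, ran from -0.08 to 0.08.

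**Figure D3:**
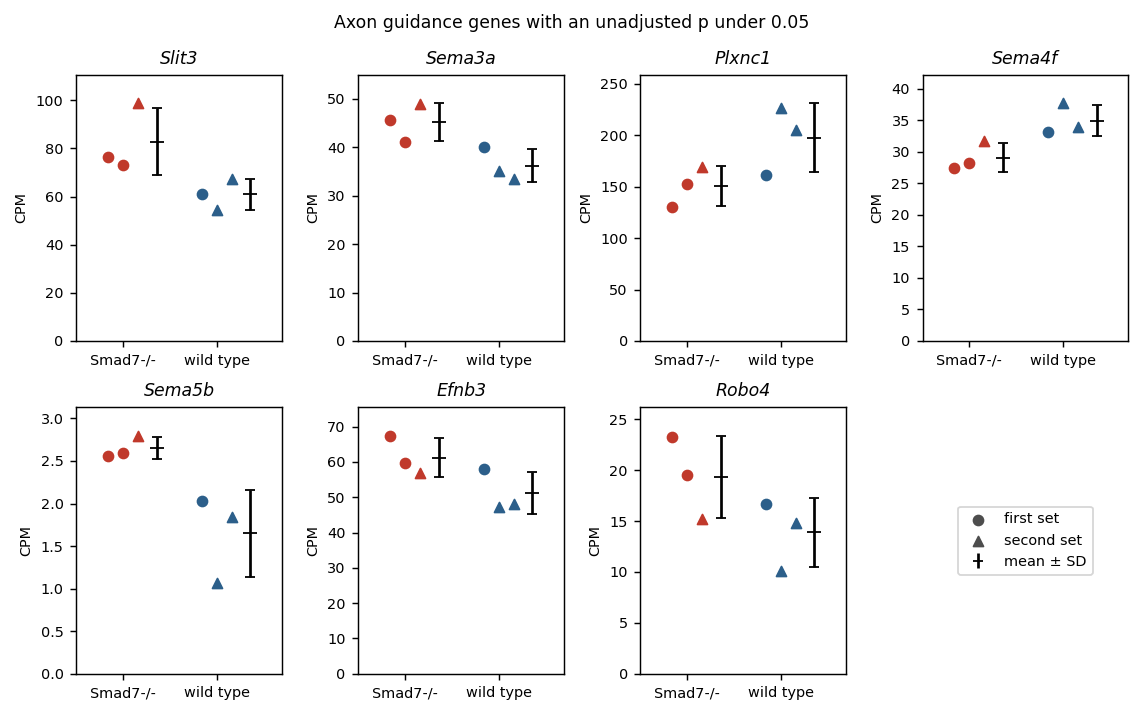
CPM in each library for the 7 axon guidance genes with an unadjusted p under 0.05, Smad7-/- left and wild type right; circles are the first set of libraries, triangles the second, and black bars give mean ± SD (n = 3). Slit3, Sema3a, Sema4f and Sema5b show groups that do not overlap, whereas those of Plxnc1, Efnb3 and Robo4 do.

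The promoters of Slit3, Sema3a and Sema4f are printed because they belong to the genes with the smallest p-values among those whose groups did not overlap. They are RefSeq promoters of build GRCm38.p6, each 250 bases before to 50 bases after the start used for it, 5′ to 3′ on the gene's strand. Capitals mark CAGAC or its reverse complement GTCTG, a short sequence that SMAD proteins are known to bind.
Slit3: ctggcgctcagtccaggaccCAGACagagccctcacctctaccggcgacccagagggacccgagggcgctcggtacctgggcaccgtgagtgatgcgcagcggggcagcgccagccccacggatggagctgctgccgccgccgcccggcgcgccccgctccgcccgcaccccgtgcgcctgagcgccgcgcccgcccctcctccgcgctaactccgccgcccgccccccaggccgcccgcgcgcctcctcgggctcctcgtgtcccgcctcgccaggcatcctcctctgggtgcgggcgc
Sema3a: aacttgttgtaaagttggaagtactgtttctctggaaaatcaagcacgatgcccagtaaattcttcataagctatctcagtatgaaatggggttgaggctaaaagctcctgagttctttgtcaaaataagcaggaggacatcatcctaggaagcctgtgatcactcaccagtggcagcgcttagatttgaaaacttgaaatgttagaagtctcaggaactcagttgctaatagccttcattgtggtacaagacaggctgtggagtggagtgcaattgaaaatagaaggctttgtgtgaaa
Sema4f: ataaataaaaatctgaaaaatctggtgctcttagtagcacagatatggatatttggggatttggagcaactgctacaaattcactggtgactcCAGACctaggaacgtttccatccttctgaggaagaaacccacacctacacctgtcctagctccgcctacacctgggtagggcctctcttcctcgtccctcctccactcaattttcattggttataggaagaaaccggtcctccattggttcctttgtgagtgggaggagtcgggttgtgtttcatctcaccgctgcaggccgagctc
The windows lie at chr11:35121206-35121505 (forward strand) for Slit3, chr5:13396534-13396833 (forward) for Sema3a and chr6:82939720-82940019 (reverse) for Sema4f. The Sema3a window starts inside the gene's full annotated span, at a downstream start. The start used for Slit3, 35121456, also lies inside that gene's annotated span. Most of the Slit3 window, its CAGAC included, is therefore within the annotated gene. CAGAC on either strand occurred 1 time in the Slit3 window, 0 times in that of Sema3a and 1 time in that of Sema4f. The base composition differed widely, with 78.3% G and C in Slit3 and 41.3% in Sema3a. CAGAC was held by 49.6% of all 32851 promoters and by 59.4% of the 69 promoters of 53 matched guidance genes. The longer palindrome GTCTAGAC, which does not contain CAGAC, occurred in 0.213% of all promoters and in 0 of the 69. These matches describe letters in a window and are not sites of binding.

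Plexins leaned lower as a family, with 8 of 9 lower in Smad7-/- and a median log2 change of -0.26, although none passed the test. Plxnc1, the receptor of Sema7a, stood at 129.8, 153 and 169 CPM in Smad7-/- libraries, against 161, 227 and 205 CPM in wild-type libraries. Its groups overlapped at Smad7-/- library 3 and wild-type library 1, and the log2 change was -0.39 ± 0.14 (SE, n = 3 each; edgeR adjusted p = 0.827). Plxna2, a semaphorin receptor of class A, stood at 182, 139.8 and 207 CPM in Smad7-/- and 196, 247 and 205 CPM in wild-type libraries (log2 -0.29 ± 0.15 SE). Plxnb2 stood at 437, 450.2 and 489 CPM in Smad7-/- libraries and 508, 531 and 485 CPM in wild-type libraries (log2 -0.15 ± 0.09 SE), with 1 overlap. Plxna1, at 331, 273 and 325 CPM in Smad7-/- and 327, 348 and 314 CPM in wild type, was level (log2 -0.09 ± 0.10 SE). Plxna3, Plxnb1, Plxna4 and the scarce Plxnb3 ran from -0.90 to -0.13, and Plxnd1 alone lay on the higher side, at 0.13 ± 0.12. Dental epithelium markers lay on the lower side too, 9 of 9 with a median of -0.13 and none called, and their part in the plexin values was not tested.

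The size of the plexin median depended on which libraries were compared. Within the first set 4 of 9 plexins were lower, with a median log2 difference of 0.01, and within the second set 8 of 9 were lower, with a median of -0.21. Their median was -0.11 without wild-type library 2, -0.16 without Smad7-/- library 2, -0.17 without wild-type library 3 and -0.12 with the sets as a covariate. Leaving out wild-type library 1 gave -0.36, leaving out Smad7-/- library 3 gave -0.38, and leaving out Smad7-/- library 1 gave -0.26. In each of these fits 8 of 9 plexins were lower, as under the other ways of scaling the libraries, where the medians were -0.26.

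Neuropilins differed by less than their spread. Nrp1 stood at 47.5, 48.1 and 58.0 CPM in Smad7-/- libraries, against 48.8, 40.7 and 51.9 CPM in wild-type libraries (log2 0.12 ± 0.12 SE, n = 3 each). Nrp2 stood at 146, 138 and 152 CPM in Smad7-/- libraries, against 143, 143 and 126 CPM in wild-type libraries (log2 0.08 ± 0.09 SE, n = 3 each). Both pairs of groups overlapped, and the 95% intervals reached no further than 0.39 and 0.28. Within the first set both were lower, with a median of -0.02, and within the second both were higher, with a median of 0.26.

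Efnb3, a transmembrane ephrin known as a midline barrier to axons, was the only ephrin with an unadjusted p under 0.05. It stood at 67.4, 59.6 and 56.7 CPM in Smad7-/- libraries, against 57.9, 47.2 and 48.1 CPM in wild-type libraries. The groups overlapped at Smad7-/- library 3 and wild-type library 1, and the log2 change was 0.26 ± 0.11 (SE, n = 3 each; edgeR adjusted p = 0.918). Efna1 stood at 83.9, 82.9 and 66.9 CPM in Smad7-/- and 70.8, 73.9 and 75.4 CPM in wild-type libraries (log2 0.09 ± 0.10 SE). Efnb1 was among the most even genes, at 106, 108 and 102 CPM in Smad7-/- and 113, 112 and 102 CPM in wild-type libraries (log2 -0.06 ± 0.08 SE). Efnb2, the arterial ephrin, leaned lower at -0.19 ± 0.11, while Efna2, Efna3, Efna4 and Efna5 ran from 0.05 to 0.18. The 8 ephrins together had 6 higher and 2 lower, with a median of 0.07. Within the first set 4 were higher and 4 lower, with a median of 0.05, and within the second set 3 were higher and 5 lower, with a median of -0.03.

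Eph receptors held no gene with an unadjusted p under 0.05 in edgeR. Epha3, a receptor found on mesenchyme and neurons, came closest among the abundant ones, at 40.6, 48.7 and 77.9 CPM in Smad7-/- libraries, against 37.3, 34.4 and 45.8 CPM in wild-type libraries. The high value of Smad7-/- library 3 stood apart, and the log2 change was 0.51 ± 0.23 (SE, n = 3 each; edgeR adjusted p = 0.988). DESeq2 gave Epha3 an unadjusted p of 0.015 (adjusted p = 0.604). Its log2 difference was 0.25 within the first set and 0.96 within the second. Ephb4 stood at 148, 142 and 141 CPM in Smad7-/- and 152, 126 and 131 CPM in wild-type libraries (log2 0.07 ± 0.09 SE). Epha2 stood at 80.6, 80.1 and 76.7 CPM in Smad7-/- and 72.5, 82.7 and 85.3 CPM in wild-type libraries (log2 -0.02 ± 0.09 SE). Both differed by less than the spread of the libraries. Epha5, with 0.391 to 0.694 CPM in Smad7-/- and 0.243 to 0.293 CPM in wild type, had groups that did not overlap, at 0.88 ± 0.41 and a 95% interval of -0.04 to 1.79. The remaining receptors Epha1, Epha4, Epha7, Ephb1, Ephb2, Ephb3 and Ephb6 ran from -0.16 to 0.08.

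Robo4, the Robo receptor of endothelial cells, stood at 23.3, 19.5 and 15.2 CPM in Smad7-/- libraries, against 16.7, 10.1 and 14.8 CPM in wild-type libraries. Smad7-/- library 3 lay below wild-type library 1, so the groups overlapped, and the log2 change was 0.48 ± 0.21 (SE, n = 3 each; edgeR adjusted p = 0.957). Endothelial markers were all higher as well, 11 of 11 with a median log2 change of 0.22 and none called. They summed to 362, 380 and 386 CPM in Smad7-/- libraries and to 330.1, 251 and 384 CPM in wild-type libraries. Their part in the Robo4 value was not tested. Robo1 stood at 230.1, 200.1 and 289.7 CPM in Smad7-/- and 261, 282 and 224 CPM in wild-type libraries (log2 -0.09 ± 0.14 SE). Robo2 stood at 47.0, 41.6 and 57.7 CPM in Smad7-/- and 41.9, 50.7 and 47.4 CPM in wild-type libraries (log2 0.06 ± 0.13 SE). Neither Robo1 nor Robo2 separated the groups, and the scarce Robo3 was at -0.09 ± 0.57.

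Several guidance genes followed the sets of libraries, as did a similar share of all tested genes. Each set holds both genotypes but in unequal numbers. Most Smad7-/- libraries are in the first set and most wild-type libraries in the second. A difference between sets therefore also enters the difference between genotypes. The ranges of the first and second set did not overlap for 19 of the 57 genes (33.3%), beside 28.6% of all tested genes. Of the 19, 8 stood higher in the first set (14.9% of all tested genes) and 11 stood lower (13.7%). Because the sets were read from the same expression values, these counts are descriptions with no test. Plxna3, an X-linked plexin, stood at 13.1 to 17.3 CPM in the 3 libraries of the first set and 23.5 to 29.1 CPM in those of the second. Plxnb1, a receptor of Sema4d, stood at 104 to 129 CPM and 150.4 to 189 CPM in the first and second set. Sema3d, at 254 to 293 CPM in the first set and 351 to 428 CPM in the second, followed the same order, as did Plxna2 and Sema3b. On the other side were Epha1, at 64.8 to 79.8 CPM in the first set and 53.5 to 64.1 CPM in the second, and Sema6c, at 23.4 to 29.7 CPM and 19.6 to 20.2 CPM.

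**Figure D4:**
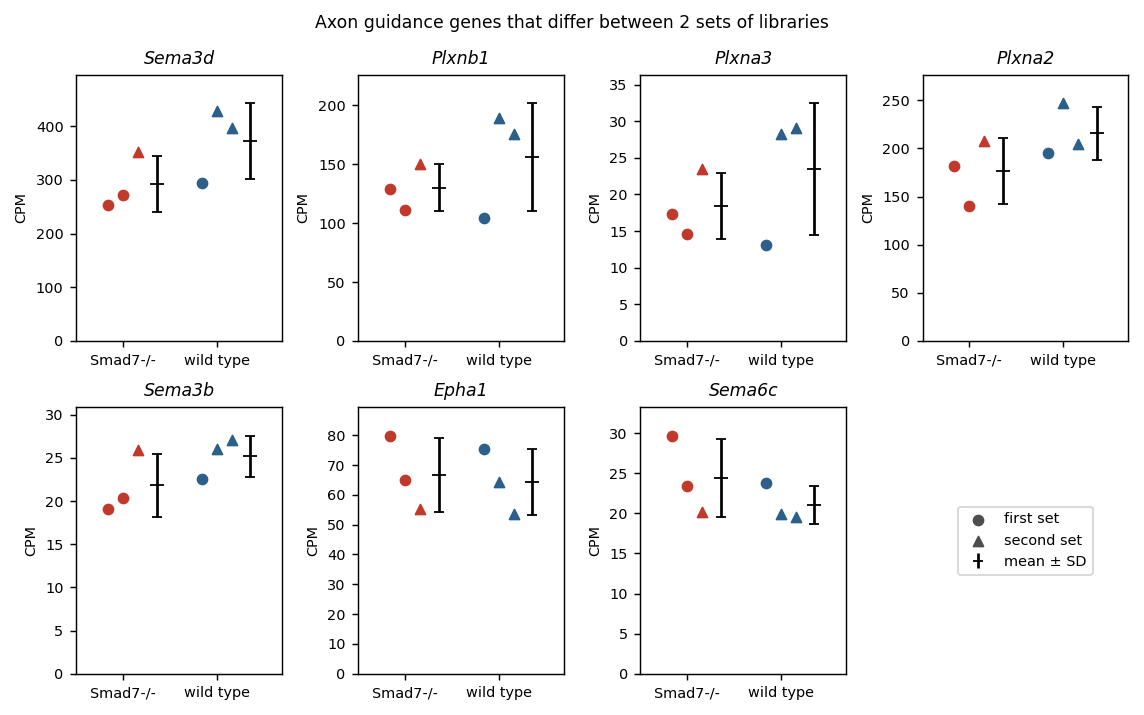
CPM in each library for 7 axon guidance genes chosen after their values were seen, Smad7-/- left and wild type right; circles are the first set of libraries, triangles the second, and black bars give mean ± SD (n = 3). In Sema3d, Plxnb1, Plxna3, Plxna2 and Sema3b all triangles lie above all circles, and in Epha1 and Sema6c below.

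Among other genes of the guidance pathways none passed the test either. A list of 58 such genes included netrins and their receptors, repulsive guidance molecules, adhesion molecules and neuropilin partners. It also included effectors of plexins, Robos and Eph receptors. Of the 58, 57 were tested, and 0 passed in edgeR and 0 in DESeq2. Their median log2 change was 0.06, with 41 higher and 16 lower. Of the 57, 6 higher and 2 lower had an unadjusted p under 0.05. Over all 15284 tested genes these were 499 (3.26%) and 287 (1.88%). Ntn1, the secreted netrin of the axon midline, stood at 35.2, 39.6 and 41.8 CPM in Smad7-/- libraries, against 28.3, 28.5 and 34.7 CPM in wild-type libraries. The groups did not overlap, and the log2 change was 0.35 ± 0.12 (SE, n = 3 each; edgeR adjusted p = 0.796). Neo1, a netrin and RGM receptor, stood at 884, 782 and 678 CPM in Smad7-/- and 867, 689.7 and 639 CPM in wild-type libraries, which overlapped (log2 0.09 ± 0.14 SE). Rnd1, a small GTPase that binds plexins, had the most negative log2 change of the list at -1.75 ± 0.61 (SE; edgeR adjusted p = 0.827). It stood at 0.639, 1.01 and 1.35 CPM in Smad7-/- libraries and 0.878, 5.86 and 3.48 CPM in wild-type libraries, which overlapped at wild-type library 1. Its difference was -0.07 within the first set and -1.44 within the second.

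For orientation in the mm10 genome, gene positions are those of GENCODE M21. Slit3 lies on chromosome 11 at 35121224 to 35708507 and Efnb3 on the same chromosome at 69554092 to 69560205. Sema3a lies on chromosome 5 at 13125414 to 13602565, with Sema3d at 12383385 to 12588948. Plxnc1 lies on chromosome 10 at 94790866 to 94944835, Sema4f on chromosome 6 at 82911885 to 82939769, Sema5b on chromosome 16 at 35541145 to 35664732 and Robo4 on chromosome 9 at 37401897 to 37415115. Of the 60 genes, 11 share exon bases with an annotated gene on the opposite strand, among them Ephb4 with Zan, Epha1 with Zyx, and Plxna1, Plxnb1 and Efna4 with antisense RNAs. Whether counting used the strand is not given in the sources used here, so reads of such pairs cannot be told apart. A further 3 genes share exon bases with a gene on the same strand. They are Plxnc1 with Gm48718, Nrp1 with Mir1903 and Sema4a with Mir7011, and the strand would not separate their reads.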

How the data were processed

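RNA-seq covered 6 tooth germ libraries, prepared with RNeasy and TruSeq RNA kits per the labels. The submitters' processing notes name the aligner HISAT2, the read counter featureCounts, DESeq2 and the build mm10, with no versions; the gene annotation and strand setting are not given in the sources used here. The deposited values are raw counts per gene symbol, with no normalization and 1 table per library; 27 of the 23420 symbols had become dates and hold at most 0.223% of the counts.

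Computed here were the edgeR 4.0.16 quasi-likelihood test in R 4.3.3 (filterByExpr with minimum count 10 and minimum total 15, TMM factors, robust fit, no covariate) on all 6 libraries, with Benjamini-Hochberg adjustment over 15284 genes and a threshold of 0.05. Standard errors and 95% intervals of the changes were derived here from the F statistic of that test and a t quantile. CPM use TMM library sizes, and differences within sets are differences between means of log2(CPM + 0.5). DESeq2 1.42.0, limma-voom (limma 3.58.1), other scalings and filters, covariates and leaving out libraries were alternatives. Lengths were exon bases of GENCODE M21 transcripts matched to RefSeq. Genes named with all library values were those with an unadjusted p under 0.05, the 2 highest per kilobase in each of 8 families, and others chosen after their values were seen. The members and lists were chosen with earlier results of these data known. The test was also run on simulated counts without sets of libraries, with changes put only into genes averaging at least 5 CPM. There edgeR recovered 59.3% of the 1.5-fold and 91.3% of the 2-fold changes. Of its calls 11.7% were false, more than the threshold allows. With no molecular identifiers, reads may repeat a molecule, so limits from counts cover counting error only.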

Additional observations from a re-analysis of the deposited data

How the results depend on the processing

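No axon guidance gene passed in any of the 16 alternatives (0 in each, and 0 without any single library), and their median log2 change stayed between -0.03 and 0.03 without 1 library. Over all genes 4 passed, against 59 in DESeq2, 2 when genes averaging under 5 CPM were left out, and 1 to 7 without 1 library. Of 351 values of the 22 named genes under alternatives, 10 changed sign, in genes close to 0. Sema3f stood at 0.0029 with library totals and at -0.037 to 0.033 without 1 library, and Epha2 at 0.0080 with the sets as a covariate and at -0.091 to 0.027 without 1 library. Without 1 library Robo1 ran from -0.25 to 0.026 and Robo2 from -0.076 to 0.17. The cause was not tested. The lowest adjusted p of a named gene was 0.196, for Slit3 with the replicate number as a block.

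Libraries of the same number are not stated to share a litter or day, and correlations of their residuals were 0.169, -0.03 and 0.09; 3 of 6 libraries correlated best with the library of their own number, a hint from the data and not the design. The replicate block gave 11 guidance genes an unadjusted p under 0.05, in place of 7, and 0 after adjustment (median log2 change -0.0035), with 4 genes over the whole table. With lengths over all annotated exons, an alternative added after seeing the data, Sema7a replaced Sema4d and Robo4 replaced Robo2 as the second of their families, and Slit3 and Nrp2 became the first. Depth limits the statements on Epha6, Epha8 and Epha10.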
